A study of Mus musculus with 8 samples.

Results

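The 9 genes described here encode the core of mouse necroptosis and death receptor signalling: Mlkl, Ripk1, Ripk3, Zbp1, Casp8, Cflar, Birc2, Birc3 and Xiap. They were chosen by name, as rows of the deposited expression table whose RefSeq identifier carries one of these symbols, and where a symbol had several rows the one that was brightest on average across the 8 arrays was selected. That mean decided only for Cflar, the 1 gene with a second row. All 9 genes were found among the 24625 rows of the table, which hold 19836 genes with a symbol. Earlier results of the same comparison were known when the genes were picked, so their differences and adjusted p-values describe these arrays and are not independent evidence about the pathway.

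Lung neutrophils of wild type (WT) mice aged 6 to 12 weeks were compared between 2 groups, each of 4 samples on 4 arrays. That age is the labels', and the study's methods give a narrower range. One group had received phosphate-buffered saline (PBS) and the other *Streptococcus pneumoniae* (SP), a common agent of bacterial pneumonia. Either was instilled intratracheally on the left side, at 2.3 µl for each g a mouse weighed. Lungs were digested after 24 h and cells were pulled out on magnetic beads carrying an antibody to Ly6G, which marks mouse neutrophils. The comparison therefore contrasts Ly6G-selected cells of the lung given PBS with those of the infected lung. In the infected lung, recruited cells cannot be told apart from cells already present. The study's methods describe purity for the samples from mice with pneumonia and give none for the PBS samples. The labels number the samples without naming separate animals, while a figure legend of the study describes each as coming from a mouse. The p-values measure the spread between these samples. The arrays measured bulk RNA, in which fewer cells of a type and less RNA per cell cannot be told apart.

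Death receptors such as TNF receptor 1 and Fas pass their signal to caspase-8 through adaptors, and caspase-8 then starts apoptosis. While the cellular inhibitors of apoptosis hold RIPK1 in a ubiquitinated complex at the receptor, the signal favours survival and transcription through NF-κB. Where caspase-8 is blocked, RIPK1 can engage RIPK3 through a shared interaction motif, RIPK3 phosphorylates MLKL, and MLKL breaks the plasma membrane, which is necroptosis. ZBP1, a sensor of Z-form nucleic acids, can reach RIPK3 without a death receptor. Neutrophils are short-lived cells, and how they die in an infected lung is known to bear on how much of their content is spilled into the tissue.

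Values are log2 expression as deposited, so 1 unit is a 2-fold difference, and a gene was called at a Benjamini-Hochberg adjusted p of at most 0.05 over all rows in limma's test. Array medians were 6.06 to 6.20 with PBS and 5.78 to 5.91 with SP, while the median difference over all rows was 0.10. The neutrophil marker list stood at a mean of 12.98 to 13.20 over its 8 genes with PBS and 12.56 to 13.10 with SP, and 3 of the 8 were called lower in SP. All 7 measured epithelial markers were lower in SP, with list means of 11.71 to 12.21 against 10.11 to 10.97, and so were 6 of 8 endothelial markers, 4 of 7 alveolar macrophage markers, of which 1 other was higher, and all 5 B cell markers. Of 8 monocyte and macrophage markers 3 were higher, with list means of 7.97 to 8.86 against 8.00 to 9.42. For T and NK cells 1 of 8 was higher, for eosinophils 1 of 5 was higher, and for fibroblasts and smooth muscle 1 of 7 was lower. Prg2 and Epx of the eosinophil list, Klrb1c of the T and NK cell list and Lum of the fibroblast list lay near the level of Y-linked genes, which read 4.33 to 4.90 and served as a gauge of background. PBS replicate 2 had the lowest neutrophil marker mean among the PBS arrays and the highest epithelial and endothelial ones. SP replicate 3 had the lowest mean of the SP arrays on 7 of the 9 lists, but the highest neutrophil marker mean, 13.10. The part of these other cells in the differences below was not tested.

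All 9 genes were higher in SP, and the 4 SP arrays lay above the 4 PBS arrays for each of them. The median difference was 1.56, and 8 of the 9 differed by at least 2-fold, with Xiap the exception. Over all rows, 21.5% were called higher and 22.6% lower, 6.37% passed at 2-fold upwards and 11.3% at 2-fold downwards, and 27.2% had SP arrays that all lay above the PBS arrays. All 9 calls held in each of the 17 other ways of fitting the data. Without PBS replicate 2 the number at 2-fold was 6 instead of 8, because Ripk1 (0.95) and Birc3 (0.98) then fell short of 1 log2 unit.

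**Figure D1:**
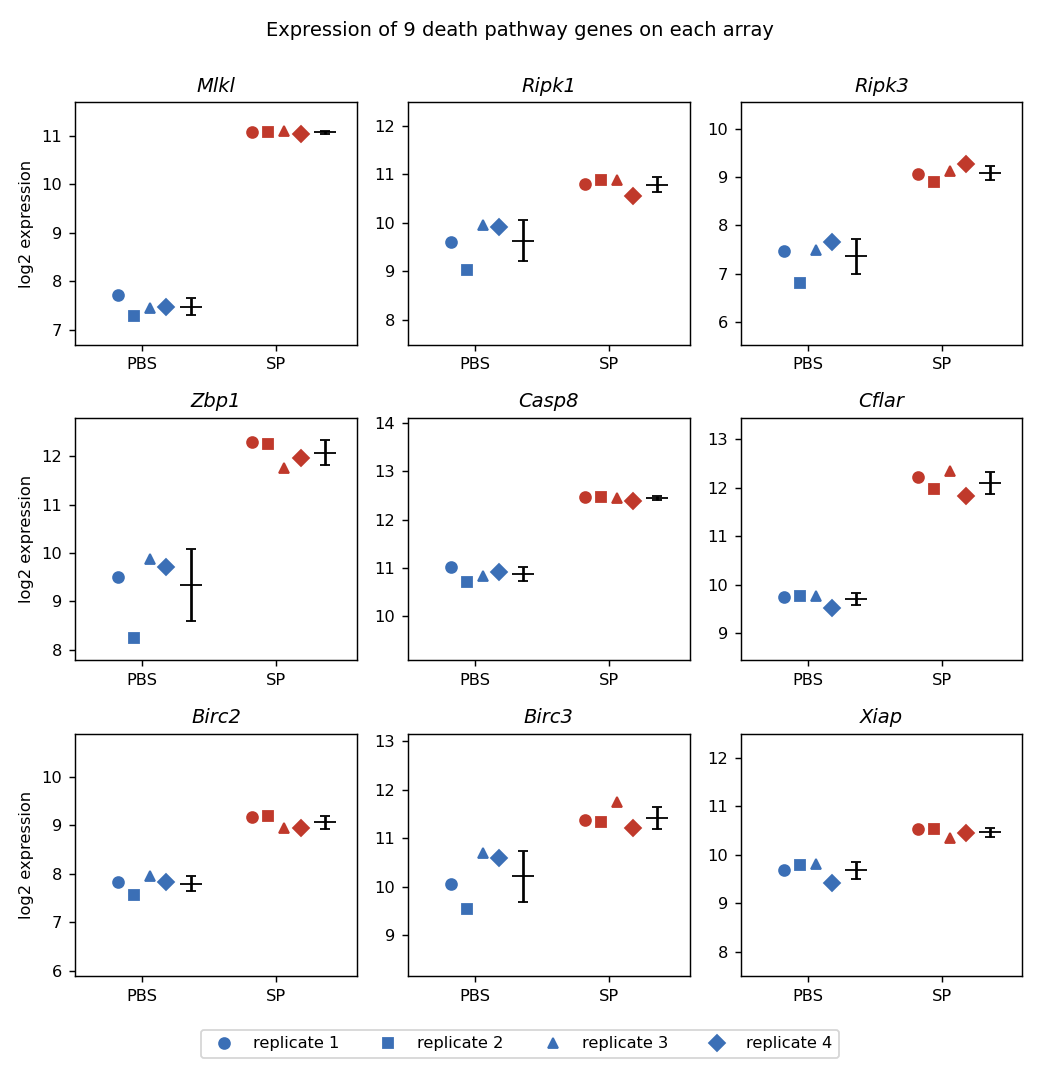
Log2 expression of each gene on the 4 PBS arrays (blue) and the 4 SP arrays (red), with the replicate number given by the symbol's shape and the group mean ± SD in black. Every panel spans the same number of log2 units on its own vertical range, so distances but not heights compare between panels. All SP arrays lie above all PBS arrays in each panel, and PBS replicate 2 is the lowest PBS array in 7 of the 9.

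Mlkl, the pseudokinase that carries out membrane rupture in necroptosis, showed the largest difference of the 9. Its row (NM_029005) read 7.71, 7.28, 7.45 and 7.46 on PBS replicates 1 to 4, and 11.08, 11.07, 11.10 and 11.03 on SP replicates 1 to 4. The SP arrays were almost level, at 11.07 ± 0.03 (SD, n = 4), and stood far above the PBS mean of 7.48 ± 0.18 (SD, n = 4). The difference was 3.59 ± 0.10 (SE), a 12.1-fold rise with a limma adjusted p of 4.37e-07. Among all rows Mlkl ranked 8 by p-value, counting rises and falls, and 102 by the size of its rise, with falls not counted. Its small spread therefore placed it higher by p-value than by the size of its rise.

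Ripk3, the kinase that activates MLKL, rose less. Its row (NM_001164107) read 7.48, 6.82, 7.49 and 7.65 with PBS and 9.07, 8.90, 9.12 and 9.26 with SP. PBS replicate 2 was the low array of its group, and the lowest SP value still exceeded the highest PBS value. The means were 7.36 ± 0.37 (SD, n = 4) and 9.09 ± 0.15 (SD, n = 4), a 3.31-fold rise (1.73 ± 0.18, SE; limma adjusted p 0.000151).

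Ripk1, the kinase and scaffold that both the survival complex and the necrosome use, rose 2.22-fold. Its row (NM_009068) read 9.61, 9.03, 9.96 and 9.92 with PBS and 10.80, 10.89, 10.88 and 10.56 with SP. The groups did not overlap, but the PBS arrays were spread over 0.92 log2 units against 0.33 for SP. The means of 9.63 ± 0.43 and 10.78 ± 0.15 (SD, n = 4 each) gave a difference of 1.15 ± 0.20 (SE) with a limma adjusted p of 0.00229.

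Zbp1, the nucleic acid sensor and a known interferon-inducible gene, had the second largest difference and the widest PBS group. Its row (NM_001139519) read 9.51, 8.24, 9.88 and 9.71 with PBS and 12.30, 12.25, 11.75 and 11.97 with SP. PBS replicate 2 sat more than 1 log2 unit below the other PBS arrays, and the SP arrays all exceeded 11. The means were 9.34 ± 0.74 and 12.07 ± 0.25 (SD, n = 4 each), a 6.64-fold rise (2.73 ± 0.34, SE; limma adjusted p 0.000383). Without PBS replicate 2 the difference was 2.37.

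Casp8 and Cflar encode caspase-8 and cFLIP, its catalytically inactive relative, which pairs with it and, depending on isoform and amount, restrains both apoptosis and necroptosis. The genes lie close together on chromosome 1, with 1 gene that encodes no protein (Gm39646) annotated between them in RefSeq. Casp8 (NM_001080126) read 11.03, 10.70, 10.84 and 10.92 with PBS and 12.47, 12.47, 12.44 and 12.38 with SP. The SP arrays were again nearly level, and the means of 10.88 ± 0.14 and 12.44 ± 0.04 (SD, n = 4 each) differed by 1.56 ± 0.08 (SE), a 2.96-fold rise with a limma adjusted p of 8.32e-06.

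Cflar (NM_009805) read 9.75, 9.77, 9.77 and 9.53 with PBS and 12.22, 11.98, 12.35 and 11.84 with SP. It was the only one of the 9 genes whose arrays were more spread with SP than with PBS. The means were 9.70 ± 0.12 and 12.10 ± 0.23 (SD, n = 4 each), a 5.26-fold rise (2.39 ± 0.12, SE; limma adjusted p 6.76e-06). The second Cflar row (NM_001289704), which was not used because of its lower mean, went from 8.13 ± 0.22 to 10.86 ± 0.21 (SD, n = 4 each), a difference of 2.73 with a limma adjusted p of 6.41e-06. Both rows thus rose, and the values do not tell the long from the short form of the protein.

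The inhibitor of apoptosis (IAP) genes differed by 0.79 to 1.26 log2 units. Birc2 and Birc3 encode cIAP1 and cIAP2, ubiquitin ligases that modify RIPK1, and they are neighbours on chromosome 9 with no gene annotated between them. Birc2 (NM_007465) read 7.84, 7.57, 7.95 and 7.84 with PBS and 9.17, 9.20, 8.94 and 8.94 with SP. Each group kept within 0.38 log2 units, and the difference of 1.26 ± 0.11 (SE) was a 2.40-fold rise with a limma adjusted p of 5.94e-05.

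Birc3, a known NF-κB target gene, read 10.05, 9.55, 10.69 and 10.59 with PBS and 11.37, 11.33, 11.76 and 11.22 with SP (NM_007464). Its PBS arrays covered 1.15 log2 units, with replicate 2 lowest, and the gap from the highest PBS to the lowest SP array was 0.53, as small as that of Xiap and the smallest of the 9 genes. The means of 10.22 ± 0.53 and 11.42 ± 0.23 (SD, n = 4 each) gave a 2.30-fold rise (1.20 ± 0.25, SE; limma adjusted p 0.00565), the least certain of the 9.

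Xiap, which encodes a direct inhibitor of caspases, read 9.69, 9.79, 9.82 and 9.43 with PBS and 10.54, 10.54, 10.35 and 10.45 with SP (NM_009688). Here PBS replicate 2 was not low, and the groups did not overlap. The means of 9.68 ± 0.18 and 10.47 ± 0.09 (SD, n = 4 each) differed by 0.79 ± 0.10 (SE), a 1.73-fold rise below the 2-fold threshold with a limma adjusted p of 0.000505.

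**Figure D2:**
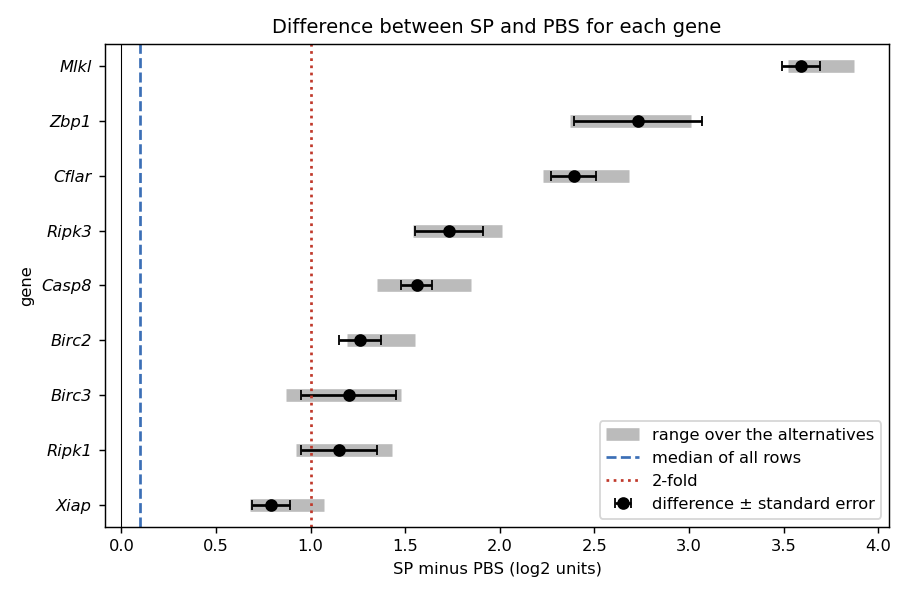
Difference between SP and PBS in log2 units for each gene, with its standard error (black) and the range of the same difference over all alternative fits (grey). The dashed line marks the median difference of all rows, 0.10, and the dotted line marks 2-fold. The differences run from 0.79 for Xiap to 3.59 for Mlkl, and only Ripk1, Birc3 and Xiap have a grey range that crosses the 2-fold line.

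Partners in a complex can be compared by the change of their ratio within each array, which cancels any scaling of a whole array. The ratio itself has no meaning, because different probe sets respond differently, and only its change between groups is given. Of 5 planned pairs 4 were measured, since Xaf1, an antagonist of XIAP, had no matched row. The smallest p-value that an exact two-sided permutation test of 4 against 4 arrays allows is 0.0286, and after adjustment over the 4 pairs no ratio passed 0.05.

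The log2 ratio of Mlkl to Ripk3 lay between -0.18 and 0.46 on the PBS arrays and between 1.77 and 2.17 on the SP arrays. It was higher in SP by 1.86, a 3.64-fold difference without overlap (exact permutation p = 0.0286, adjusted 0.0571). The log2 ratio of Cflar to Casp8 lay between -1.40 and -0.93 with PBS and between -0.54 and -0.09 with SP, which was higher by 0.83 or 1.78-fold (exact permutation p = 0.0286, adjusted 0.0571). The separation was complete for both pairs, at the smallest p-value the design can give. Each change in ratio restates the unequal rises of its genes given above. The pairs were chosen with earlier results of these data known, so the separation is not independent evidence.

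The other pairs overlapped between groups. The log2 ratio of Ripk3 to Casp8 differed by 0.16 (exact permutation p = 0.429, adjusted 0.571). That of Birc3 to Birc2 differed by -0.06 (exact permutation p = 0.914, adjusted 0.914). After a further quantile normalization of the arrays these differences were larger, 0.60 (exact permutation p = 0.0857) and -0.43 (0.0571), both unadjusted. For Mlkl over Ripk3 and Cflar over Casp8 they were then 1.75 and 0.87, each at an unadjusted exact permutation p of 0.0286.

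**Figure D3:**
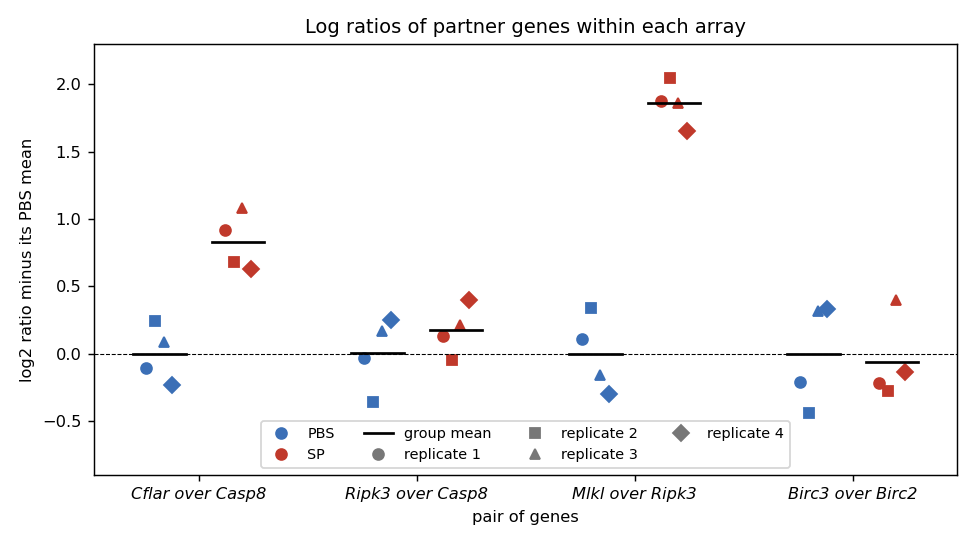
Log2 ratio of partner genes on each array, minus the mean of the ratio over the PBS arrays, for PBS (blue) and SP (red), with black bars for group means and the replicate number given by shape. SP and PBS arrays are separate for Cflar over Casp8 and for Mlkl over Ripk3, with differences of 0.83 and 1.86, and overlap for the other pairs.

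Variation within the groups was compared between genes. Deviations of the 8 arrays from their group means gave 36 pairs of genes with a median Pearson r of 0.44, of which 16 exceeded 0.5 and 10 were below 0. The highest were 0.94 for Mlkl with Casp8, 0.93 for Ripk1 with Birc3, 0.90 for Zbp1 with Birc2 and 0.89 for Ripk1 with Zbp1. Mlkl and Casp8 deviated by no more than 0.06 on the SP arrays. Their r therefore rests mainly on PBS replicate 1 (0.23 and 0.16) and PBS replicate 2 (-0.20 and -0.17). Xiap stood at the other end, with -0.57 against Ripk3 and -0.42 against Birc3. The pairs share the same 8 arrays, and PBS replicate 2 was the lowest PBS array for 7 of the 9 genes, Cflar and Xiap being the exceptions. On that array Zbp1 deviated by -1.10 and Birc3 by -0.67, the epithelial marker mean by 0.28, the monocyte and macrophage marker mean by -0.50 and the neutrophil marker mean by -0.11. Whether these markers bear on the low values was not tested. SP replicate 3, where the monocyte and macrophage marker mean deviated by -0.95, was the lowest SP array only for Zbp1, Birc2 and Xiap.

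**Figure D4:**
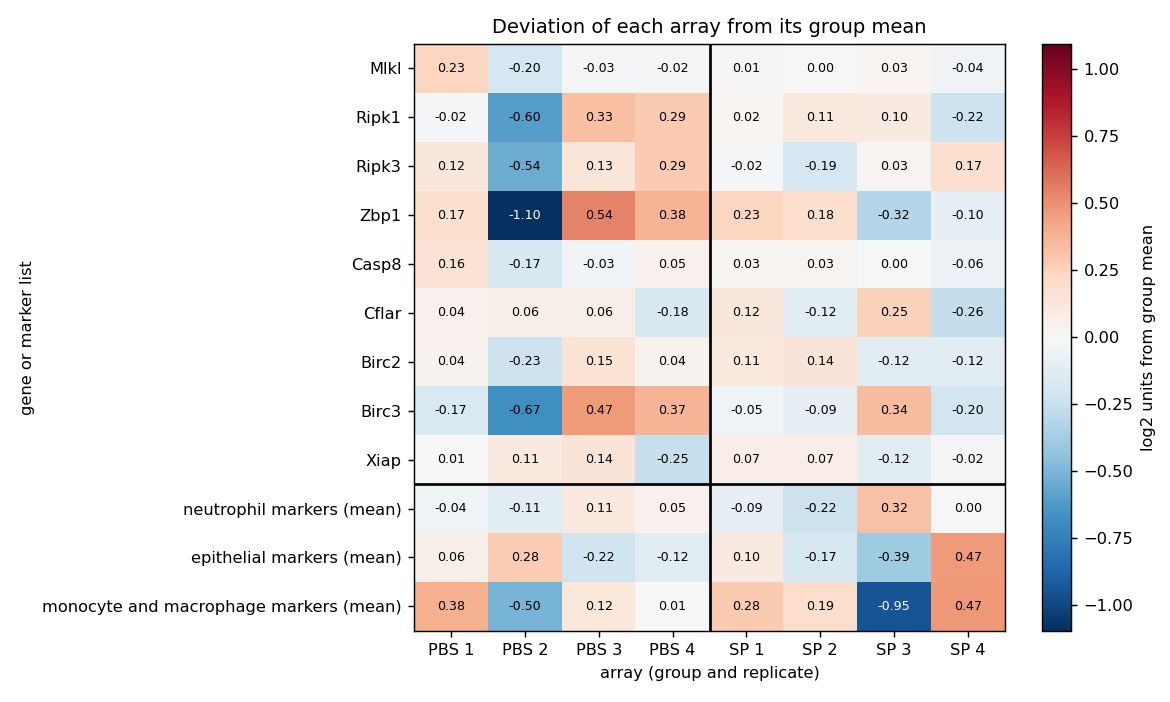
Deviation of each array from the mean of its group in log2 units, for the 9 genes and for the mean of the neutrophil, epithelial and monocyte and macrophage marker lists. PBS replicate 2 is the array with the most low values, down to -1.10 for Zbp1, and the deviations of Mlkl and Casp8 on the SP arrays stay within 0.06.

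The rows most like each gene over all 8 arrays were found by Pearson r, which here mainly follows the contrast the arrays share. Mlkl was closest to Slfn5 (r = 0.9991), Ikbke (0.9989) and Fcgr1 (0.9988). Casp8 was closest to Bhlhe40 (0.9994), Tapbp (0.9987) and Tifa (0.9986), and Cflar to Tor1aip2 (0.9988), Zup1 (0.9982) and Psma5 (0.9981). The 3 nearest rows of these genes all had r above 0.998.

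Zbp1 was closest to Tec (0.9987), Cdc42ep2 (0.9986) and Fhl3 (0.9985), and Birc2 to Zbtb17 (0.9990), Sh3bp2 (0.9985) and Uba7 (0.9983). Birc3 was closest to Ptpn1 (0.9975), Nr4a3 (0.9968) and Socs3 (0.9964), and Ripk1 to Rnf115 (0.9974), Upp1 (0.9968) and Sp100 (0.9958). The best likeness was lower for Ripk3, at 0.9928 with Rapgef2, 0.9915 with Cxcl10 and 0.9912 with Irf5. Xiap was closest to Ssc4d (0.9932), Stx4a (0.9924) and Olfr1152 (0.9909), of which Olfr1152 lay at the level of Y-linked genes, at 4.45 with PBS and 4.64 with SP.

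The stretch of 250 bases before each RefSeq start site was searched on both strands for patterns that transcription factors of inflammation are known to bind, since NF-κB and interferon signalling are the textbook inducers of several of these genes. The table of start sites (RefSeq, GRCm38.p6) matched 8 of the 9 genes with 12 windows and held no entry for Zbp1. The gamma-activated site, with the letters TTCNNNGAA, occurred in 7.02% of all 32851 windows and in 1 of the 12, for Ripk1, where 2 matches were found. The NF-κB consensus occurred in 7.25% of all windows and in 0 of the 12, and the consensus of the interferon-stimulated response element in 0.146% and in 0 of the 12. A match describes letters only, and its absence says only that the letters are not in these windows. The Ripk1 matches are shown because they were the only ones in the set, with the pattern in capitals, 5′ to 3′ on the plus strand, at chr13:34002756-34002784 and chr13:34002853-34002873.
Ripk1, match 108 bases before the start: agaagctggtTTCCCGGAAggggcggagg
Ripk1, match 11 bases before the start: acttcaaacgTTCCCGGAAat

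The genes around the core were taken in 7 lists by role, from ligands to effectors, and 66 of their 71 genes were measured. Of these 38 were called higher, 9 lower and 19 neither, with 22 past 2-fold upwards and 0 downwards. Their median difference was 0.52, beside 0.10 over all rows. Over all rows 21.5% were called higher and 22.6% lower, with 6.37% past 2-fold upwards and 11.3% downwards. The counts of each list below are to be read beside these shares. The 9 lower genes, named after their values were seen, were Tnfrsf21, Fadd, Traf5, Birc6, Casp2, Dffa, Dffb, Hsp90aa1 and Hsp90ab1. With every array centred on its median the number lower was 5.

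**Figure D5:**
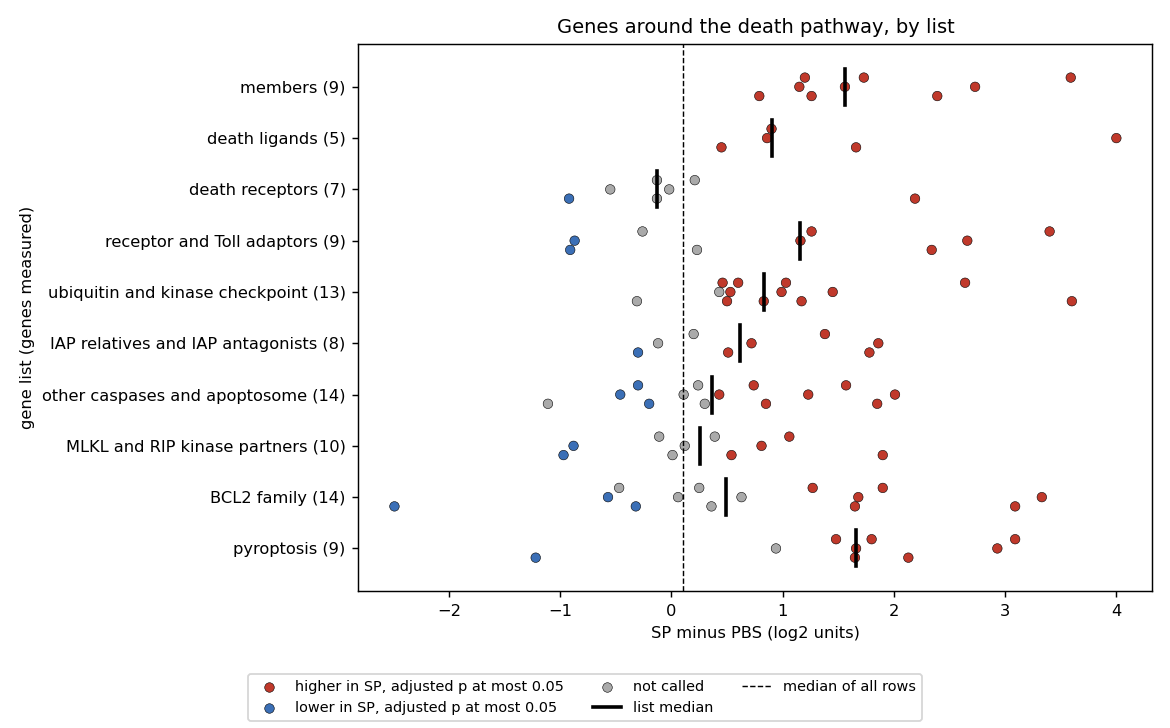
Difference between SP and PBS in log2 units for each gene of the core set, the 7 surrounding lists, the BCL2 family and pyroptosis, with the number measured in parentheses. Red and blue points were called higher and lower, grey points were not called, black bars are list medians and the dashed line is the median of all rows. List medians run from -0.13 for death receptors to 1.66 for pyroptosis.

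All 5 measured death ligands were higher. Tnf, the ligand of TNF receptor 1, rose 16.0-fold, from a mean of 8.74 to 12.75 (n = 4 each). The difference was 4.00 ± 0.43 (SE), with a limma adjusted p of 0.000183. Its PBS arrays had an SD of 1.0 with replicate 2 lowest, at 7.41, and without that array the difference was 3.56. Lta, which encodes lymphotoxin alpha, rose by 1.66 and Fasl, the ligand of Fas, by 0.90, but their PBS means of 4.78 and 5.01 lay close to background. Tnfsf10, which encodes TRAIL, rose by 0.86, with a limma adjusted p of 0.0328 that no longer passed without PBS replicate 3 or 4 or without SP replicate 1, 2 or 4, by the methods' t-test (0.0684) or with quantile normalization (0.70, 0.0953).

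Of 7 death receptors 1 was higher, 1 lower and 5 neither, and of these 5 Ngfr and Edar lay at the level of Y-linked genes and Tnfrsf25 (5.27 with SP) close to it. Fas, the receptor of Fas ligand, rose 4.57-fold, from 9.39 ± 0.21 to 11.58 ± 0.23 (SD, n = 4 each; limma adjusted p 1.65e-05). Tnfrsf1a, which encodes TNF receptor 1, read 11.62 ± 0.39 and 11.83 ± 0.11 (SD, n = 4 each), a difference of 0.21 with a limma adjusted p of 0.342. Tnfrsf10b, the mouse TRAIL receptor gene, differed by -0.55 with a limma adjusted p of 0.0566, which passed without PBS replicate 2 (0.0381), SP replicate 3 (0.0446) or SP replicate 4 (0.0432) and with array weights (-0.87, 0.0034), dim rows left out (0.0463) or the replicate block (0.00856). With quantile normalization it was -0.20 (limma adjusted p 0.569) and with centred arrays -0.27 (0.281).

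Among 9 receptor and Toll adaptors 5 were higher, all at 2-fold, and 2 lower. Daxx, an adaptor of Fas and a histone chaperone, rose 10.6-fold. Traf1 rose 6.32-fold and Traf3 5.07-fold, and both encode receptor adaptors. Tradd (1.26) and Traf2 (1.16), which link TNF receptor 1 to RIPK1 and to the cellular IAPs, rose by the log2 differences given. Fadd, the adaptor that brings caspase-8 to death receptors, went the other way. It fell from 6.72 ± 0.27 to 5.81 ± 0.32 (SD, n = 4 each), a difference of -0.91 with a limma adjusted p of 0.00551. Fadd read 6.81, 6.98, 6.33 and 6.75 with PBS and 5.94, 5.76, 5.39 and 6.16 with SP. Within each group this order of the arrays was that of the epithelial marker mean. The part of other cells in the fall was not tested. With quantile normalization the difference was -0.62 (limma adjusted p 0.0357) and with centred arrays -0.63 (0.00775). Ticam1, which encodes TRIF, the Toll adaptor that binds RIPK1 and RIPK3, differed by 0.23 with a limma adjusted p of 0.142, and passed at 0.62 (0.000701) with quantile normalization, 0.51 (0.00536) with centred arrays, 0.26 (0.0479) with array weights and 0.32 (0.0313) without SP replicate 3.

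The ubiquitin and kinase checkpoint, which decides whether RIPK1 promotes survival or death, had 11 of 13 genes higher, 5 of them at 2-fold, and 0 lower. Tnip1, a ubiquitin-binding partner of A20, rose 12.1-fold, and Tnfaip3, which encodes A20 itself, rose 6.24-fold, though its PBS arrays had an SD of 1.28 and its log2 difference of 2.64 was 2.03 without PBS replicate 2. Mapkapk2, a kinase that phosphorylates RIPK1 and restrains it, rose 2.74-fold, and Cyld, the deubiquitinase that releases RIPK1 towards death, rose 2.04-fold. Genes known to hold RIPK1 back and a gene known to release it were thus both higher.

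Of 8 measured relatives and antagonists of the IAPs 5 were higher and 1 lower. Naip5 (1.86), Naip2 (1.78) and Naip6 (1.38), receptors of bacterial proteins with an IAP repeat, rose by the log2 differences given, but they are near-identical copies whose probes may cross-react, so the share of each is uncertain. Diablo, the mitochondrial antagonist of IAPs, rose by 0.51 with a limma adjusted p of 0.0227, a call that was lost when PBS replicate 1 or 2 or SP replicate 1 or 2 was left out.

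Of 14 other caspases and apoptosome genes 7 were higher and 3 lower. Casp1 and Casp4, the inflammatory caspases, rose 4.02-fold and 2.98-fold.

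Of 10 measured partners of MLKL and the RIP kinases 4 were higher and 2 lower, with a median of 0.25. Adar, which edits double-stranded RNA and keeps ZBP1 in check, rose 3.73-fold, from 9.21 ± 0.38 to 11.11 ± 0.16 (SD, n = 4 each; limma adjusted p 0.00011). Chmp4b, a subunit of the ESCRT-III machinery that repairs membrane damaged by MLKL, rose 2.09-fold.

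Neighbouring death programmes were counted in the same way. Of 14 measured BCL2 family genes 6 were higher, all at 2-fold, and 3 lower, with a median of 0.50. Bcl2a1b, a survival gene of neutrophils, rose by 3.33 log2 units, but it is one of several near-identical copies and its share is uncertain. Pmaip1, which encodes the death-promoting NOXA, rose 8.50-fold. The largest rises of this list were thus those of a survival gene and a death-promoting gene. The others higher at 2-fold, named after their values were seen, were Bcl2l11 (1.90), Bak1 (1.68), Bax (1.65) and Bcl2l1 (1.27).

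Of 9 pyroptosis genes 7 were higher, all at 2-fold, and 1 lower, with a median of 1.66. Ninj1, whose protein ruptures the membrane of dying cells, rose 8.50-fold, from 9.27 ± 0.76 to 12.36 ± 0.14 (SD, n = 4 each; limma adjusted p 0.000193). Mefv, which encodes the inflammasome sensor pyrin, rose 7.60-fold. The genes lower at 2-fold, named after their values were seen, were Gsdme of the pyroptosis list (-1.22), a member of the gasdermin family, and Bok of the BCL2 family (-2.49), a relative of BAX and BAK.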

How the data were processed

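The deposited values are log2 expression, 1 per row and array. By the study's methods they came from Affymetrix Mouse Gene 1.1 ST arrays with RMA, which pooled the probes of a gene under the authors' own mapping. Probe-level correction came first, with a step that equalises the distributions of the arrays. Such values are relative within an array, and very bright signals may be compressed. Rows received symbols from RefSeq genes (GRCm38.p6), matched for 19915 of 24625 rows (80.9%). Several rows remained for 78 symbols, Cflar among them, so a row does not always pool all probes of a symbol. SP and PBS were compared by limma 3.58.1 in R 4.3.3 (lmFit and eBayes, no covariates, two-sided, Benjamini-Hochberg over all rows) after the code had been tested on simulated data. Ratios were compared by exact permutation in Python 3.11.15 with scipy 1.17.1, and 86 sets of 4 arrays were screened by Dixon's ratio. The number of arrays limits precision.

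The genes, lists and tests were chosen with earlier results of these data known. Named were the 9 genes, 17 fixed pathway genes (Xaf1 had no row), up to 3 genes per surrounding list and 2 for the BCL2 family and pyroptosis with the largest difference at 2-fold without overlap, and the 3 rows most like each gene; 2 genes under this rule are counted in their list but not reported here. Zbp1, Cflar, Birc2 and Fas stand in gene lists the study chose on these samples. So do other genes named here, among them Tnf, Lta, Tnfaip3, Cyld, Traf1, Traf3, Mapkapk2, Pmaip1, Ninj1 and Chmp4b. The alternatives were the methods' t-test (their ANOVA applied to 2 groups), array weights, a trended robust prior, a block on the replicate number, centred arrays, a further quantile normalization, dim rows left out, 1 row per symbol and each array left out. Leaving out PBS replicate 2 and SP replicate 3 together was chosen after seeing the data. Looser NF-κB and interferon patterns were searched first and are not reported here. MicroRNA arrays were not analysed here.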

Additional observations from a re-analysis of the deposited data

Results flagged for a closer look

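Of 86 sets of 4 arrays, 3 held a value far from the others, and chance alone marks about 1 set in 20. Cflar read 9.53 on PBS replicate 4, where the other PBS arrays read 9.75 to 9.77. Tnfaip3 read 13.17 on SP replicate 3, where the other SP arrays read 12.84 to 12.88. Bcl2a1b read 8.38 on PBS replicate 2, where the other PBS arrays read 9.62 to 9.71.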

How the results depend on the processing

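All 9 genes stayed called and higher in the 17 alternatives, with 6 to 8 at 2-fold when 1 array was left out, and 6 without PBS replicate 2 and SP replicate 3 together. Over all rows 10860 were called. Centring the arrays on their medians gave 18255, lowered the share of lower calls among those at 2-fold from 63.9% to 44.4% and the surrounding genes called lower from 9 to 5; the cause was not tested. Leaving out 1 array gave 8200 to 10907 called rows. Of 508 values of named surrounding genes 484 kept direction and call, 11 lost the call (Tnfsf10 and Diablo), 12 gained it (Ticam1 and Tnfrsf10b) and 1, not called, turned sign, Tnfrsf1a to -0.03 with quantile normalization. With 1 array left out the change in the log2 ratio was 1.77 to 1.98 for Mlkl over Ripk3 and 0.75 to 0.91 for Cflar over Casp8, each at an exact permutation p of 0.0571, the smallest that 3 against 4 arrays allow. For Birc3 over Birc2 it was -0.22 to 0.05, turning sign to 0.04 and 0.05 without PBS replicate 3 or 4 and 0.01 without SP replicate 2. With the replicate number as a block 9842 rows were called, 4324 of them at 2-fold, and all 9 genes, 8 at 2-fold; of the named genes only Tnfrsf10b changed its call, to a limma adjusted p of 0.00856. Deviations of samples with the same number correlated at 0.02, 0.03, 0.35 and -0.27. The labels do not say whether the numbers pair the samples, and these correlations cannot settle it, because deviations within a group are not independent.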
